A study of Rattus norvegicus with 12 samples.

Results

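The TGF-beta superfamily signals by which injured kidney cells regulate repair and scarring were followed through 10 listed genes, of which 9 had a row on the array with that symbol alone. The genes were taken by symbol, with 1 row each, from 36685 rows and 18166 genes that had 1 symbol and a value on every array. Tgfbr2, the partner receptor of Tgfbr1, was not analysed here. Total RNA was measured in rat kidneys that had undergone ischemia and reperfusion, a period of stopped blood flow followed by its return. Rats had received placebo or anti-miR-182, and kidneys were taken 2 or 7 days after the injury, which gives 4 groups of 3 arrays with a different animal on every array. Anti-miR-182 is an inhibitor of the microRNA miR-182, and the study asked how inhibitor and placebo differed. All 4 groups share the injury, and the sources used here give no strain, sex, age, uninjured group, or dose and time of the inhibitor. A further label calls the tissue a zero-hour biopsy although each title gives a day after injury, and the titles were followed.

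TGF-beta ligands are secreted bound to a latency peptide and act, once released, through a pair of receptor kinases that phosphorylate SMAD proteins. Activins use the same SMADs, whereas bone morphogenetic proteins use a separate branch that often opposes them. In kidney, TGF-beta signalling is known for driving matrix production by fibroblasts after tubular injury, and BMP7 for countering it. SMAD7 is induced by the pathway and shuts its receptor off, and CCN2 is a matrix-associated protein made downstream of it.

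Values were deposited as log2 signals, so a difference of 1 is a doubling. Array medians lay between 5.98 and 6.10 at day 2 and between 5.84 and 5.93 at day 7. The 190 rows without any value at day 2 had values at day 7, so the days may have been normalized apart, and day and normalization run cannot be told apart. Kidney identity was checked on markers fixed for each cell type. Umod, of the thick ascending limb, and Lrp2, of the proximal tubule, ranked at percentiles 99.4 and 99.3 of all genes by mean signal. On the second principal component, which held 10.2% of the variance, anti-miR-182 day 2 replicate 3 lay at 29.4 and the other arrays between -15.4 and 9.18. The row annotated Mir182 read 4.84, 4.48 and 4.69 in placebo and 6.42, 6.21 and 6.57 under anti-miR-182 at day 2. At day 7 the same row read 4.32, 3.97 and 4.75 in placebo and 5.63, 5.999 and 4.93 under anti-miR-182. It was thus higher on the arrays labelled anti-miR-182 on both days, by 1.45 ± 0.17 (SE) over both days (limma adjusted p = 0.0104). Inhibition of a microRNA need not lower its transcript, and what the probes of this row read in the presence of the inhibitor was not tested. Directions below follow the labels. The tissue was measured in bulk, where fewer cells of a type and less RNA per cell cannot be told apart.

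The inhibited microRNA is printed because every treatment comparison rests on it, with its seed, bases 2 to 8, in capitals. The mature sequence is RefSeq's, at chr4:59752249-59752273 of GRCr8 on the minus strand.
rno-miR-182: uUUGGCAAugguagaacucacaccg

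Inhba, Tgfb2 and Gdf15 were the 3 genes called between days as deposited, over both treatments, by limma at an adjusted p under 0.05. After centring on array medians or quantile normalization Gdf15 lost that call, while Tgfb1 and Smad7 gained it. The 250 bases before the annotated start are printed for those 3 genes and for Ccn2, which held the most motif matches. They come from RefSeq's GRCr8 promoters: chr17:53804509-53804758 (minus strand) for Inhba, chr13:100792686-100792935 (minus) for Tgfb2, chr16:18839015-18839264 (plus) for the second Gdf15 entry and chr1:22624615-22624864 (minus) for Ccn2. Capitals mark CAGAC, the letters of a SMAD3 and SMAD4 element, GGCGCC, those of a BMP-responsive SMAD element, and GGAATG, those of a TEAD element, searched on both strands. GGCGCC reads the same on both strands, and no letters of these 3 motifs overlapped in the windows.
Inhba: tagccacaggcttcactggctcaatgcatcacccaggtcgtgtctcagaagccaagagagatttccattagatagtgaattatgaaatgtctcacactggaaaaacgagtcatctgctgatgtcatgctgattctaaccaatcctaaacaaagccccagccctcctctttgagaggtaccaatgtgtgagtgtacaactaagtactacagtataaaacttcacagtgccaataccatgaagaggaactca
Tgfb2: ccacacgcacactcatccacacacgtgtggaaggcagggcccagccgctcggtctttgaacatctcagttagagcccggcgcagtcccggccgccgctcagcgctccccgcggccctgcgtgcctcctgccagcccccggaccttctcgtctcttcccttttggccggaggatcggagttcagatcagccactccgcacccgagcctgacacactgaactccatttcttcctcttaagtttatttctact
Gdf15: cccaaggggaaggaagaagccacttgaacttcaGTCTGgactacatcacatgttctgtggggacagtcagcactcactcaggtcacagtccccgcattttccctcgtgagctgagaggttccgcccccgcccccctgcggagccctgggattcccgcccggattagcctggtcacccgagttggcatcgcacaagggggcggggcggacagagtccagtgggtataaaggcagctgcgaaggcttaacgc
Ccn2: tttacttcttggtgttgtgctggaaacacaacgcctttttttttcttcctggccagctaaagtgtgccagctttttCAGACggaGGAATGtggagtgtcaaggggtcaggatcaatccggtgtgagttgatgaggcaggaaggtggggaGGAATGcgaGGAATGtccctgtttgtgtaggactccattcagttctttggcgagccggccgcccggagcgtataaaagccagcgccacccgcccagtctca

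Ccn2 held 1 CAGAC, starting at base -174 before its start, and 3 GGAATG, at -166, -101 and -92. The second Gdf15 window held 1 CAGAC on the other strand, seen as GTCTG at -217, while the first held none of the 3 motifs. None of them was found in the windows of Inhba, Tgfb1, Tgfb2 or Tgfb3. Smad7 held 2 GGCGCC, at -96 and -36, and Tgfbr1 held 1, at -242. Of 33469 promoter windows of this length, 42.9% held CAGAC, 8.69% GGCGCC and 12.1% GGAATG, so a match is a description of the letters and not of a used site. Bmp7 had no entry in the table.

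Tgfb1, the main TGF-beta ligand of injured kidney, read 6.68, 6.54 and 6.71 in placebo at day 2 and 6.58, 6.52 and 6.22 under anti-miR-182. At day 7 it read 6.58, 7.10 and 6.95 in placebo and 6.57, 6.92 and 6.65 under anti-miR-182. Placebo at day 7 had the highest mean (6.88 ± 0.27, SD, n = 3) and anti-miR-182 at day 2 the lowest (6.44 ± 0.19), but the ranges of all neighbouring groups overlapped. Tgfb2 read 6.40, 6.38 and 6.27 in placebo at day 2 and 6.24, 6.59 and 5.89 under anti-miR-182. At day 7 Tgfb2 read 6.50, 6.75 and 7.23 in placebo and 6.48, 6.69 and 7.13 under anti-miR-182. All 3 placebo arrays of day 7 stood above all 3 of day 2, as for 1523 of 18166 genes, whereas under anti-miR-182 the highest day 2 array exceeded the lowest of day 7. Tgfb3 read 6.07, 6.31 and 6.69, and 6.35, 6.31 and 5.87, in placebo and under anti-miR-182 at day 2. At day 7 the Tgfb3 signals were 5.87, 6.57 and 6.26 in placebo and 5.89, 6.36 and 5.94 under anti-miR-182. The 4 group means of this ligand lay between 6.06 and 6.35, with SDs of 0.26 to 0.35 and overlap throughout.

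Inhba encodes the beta A chain, which pairs to form activin A, a ligand made by injured epithelium and fibroblasts. It read 6.31, 6.17 and 6.39 in placebo and 6.31, 6.36 and 5.93 under anti-miR-182 at day 2, and 6.52, 6.63 and 6.87, and 6.59, 6.86 and 6.81, at day 7. Every day 7 array stood above every day 2 array, and within each day both treatments overlapped. Bmp7, a BMP made by kidney tubules, read 8.19, 8.36 and 8.01 in placebo and 7.84, 8.14 and 7.70 under anti-miR-182 at day 2. The day 7 values of Bmp7 were 7.57, 7.95 and 7.85 in placebo and 7.90, 8.31 and 7.73 under anti-miR-182. The placebo means were 8.19 ± 0.18 (SD, n = 3) at day 2 and 7.79 ± 0.19 at day 7, with all day 7 arrays below, as for 7260 of 18166 genes, while the means under anti-miR-182 were 7.89 ± 0.23 and 7.98 ± 0.30. Gdf15, a stress-induced ligand that acts through the receptor GFRAL, read 7.02, 7.08 and 6.82 in placebo and 6.83, 7.07 and 7.08 under anti-miR-182 at day 2. At day 7 Gdf15 read 6.56, 6.63 and 6.66 in placebo and 6.63, 6.80 and 6.59 under anti-miR-182. All 6 arrays of day 7 lay below all 6 of day 2, as for 3607 of 18166 genes, and treatments overlapped on both days.

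Tgfbr1, the type I receptor kinase that phosphorylates SMADs, read 8.14, 8.30 and 8.22 in placebo and 8.31, 8.49 and 8.45 under anti-miR-182 at day 2. At day 7 the receptor read 8.07, 8.33 and 8.44 in placebo and 8.13, 8.39 and 8.27 under anti-miR-182. The lowest anti-miR-182 array of day 2 stood just above the highest placebo array of that day, and at day 7 both groups overlapped. Smad7, the inhibitory SMAD, read 6.17, 5.93 and 5.91 in placebo and 6.25, 6.19 and 6.03 under anti-miR-182 at day 2. Its day 7 values were 6.43, 6.14 and 6.34 in placebo and 6.17, 6.27 and 6.28 under anti-miR-182. Placebo at day 2 had the lowest mean (5.999 ± 0.15, SD, n = 3) and placebo at day 7 the highest (6.30 ± 0.15), with both anti-miR-182 means between them and overlap between neighbouring groups. Ccn2 read 6.95, 6.98 and 7.26 in placebo and 7.23, 7.23 and 7.04 under anti-miR-182 at day 2. At day 7 Ccn2 spread more widely, at 7.18, 6.82 and 7.37 in placebo and 6.63, 6.90 and 7.50 under anti-miR-182. The 4 means of Ccn2 lay between 7.01 and 7.17, and all 4 groups overlapped.

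**Figure D1:**
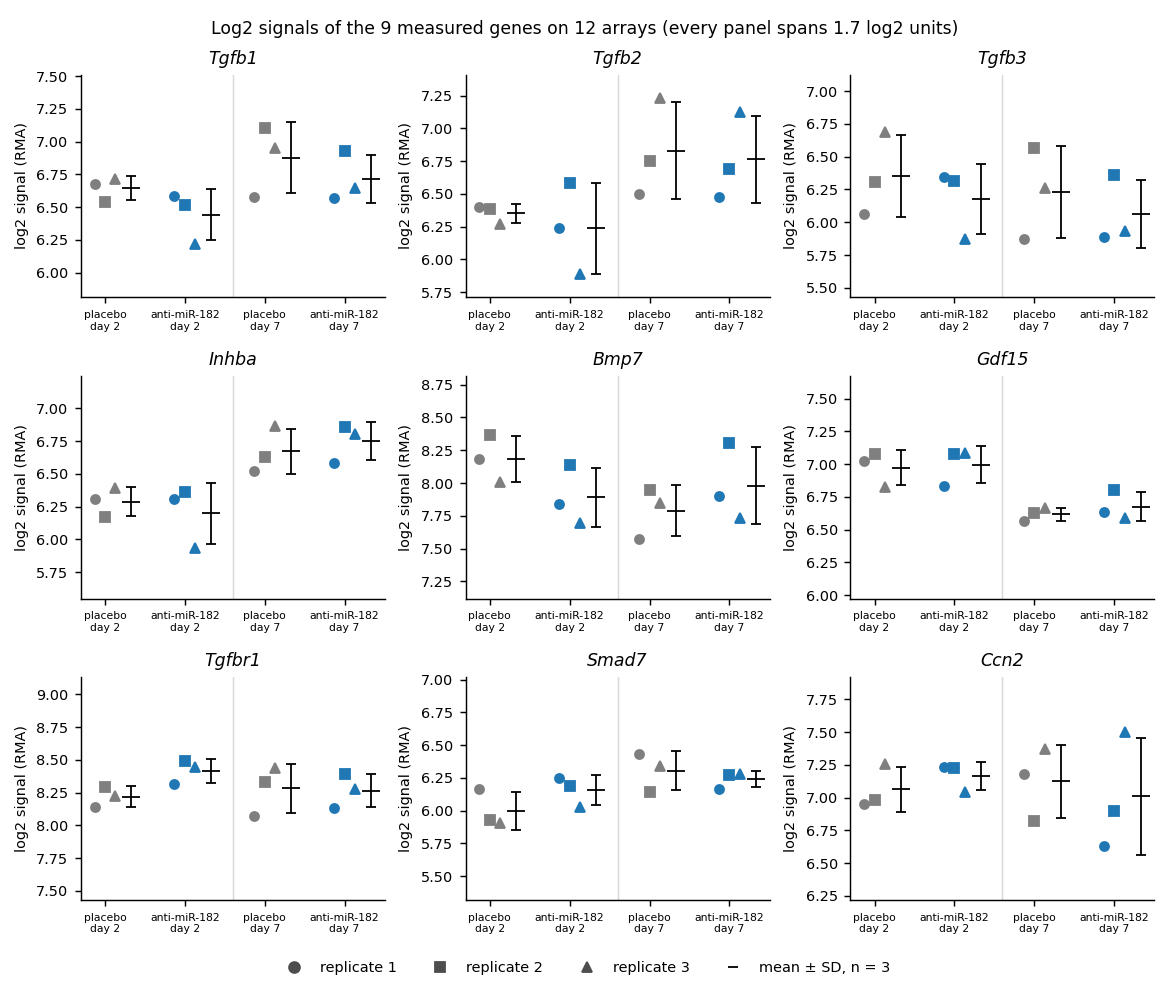
Deposited log2 signal of each of the 9 genes on each of the 12 arrays, by treatment and day, with the mean and SD of 3 arrays beside the points; every panel spans the same number of log2 units. Inhba is higher on all 6 arrays of day 7 than on all 6 of day 2 and Gdf15 is lower, while Tgfb3 and Ccn2 overlap between all groups.

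Some arrays were low for many of these genes at once. Within its group, anti-miR-182 day 2 replicate 3 held the lowest value of 7 of the 9 genes (all but Tgfbr1 and Gdf15), against 46.0% of all genes. Placebo day 7 replicate 1 was also lowest for 7 of the 9 (all but Smad7 and Ccn2), against 40.0% of all genes. Anti-miR-182 day 7 replicate 1 was lowest for 7 as well (all but Bmp7 and Gdf15), against 35.2%. These 3 arrays pull down several ligands in the means of their groups, and the part of array quality in that was not tested.

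The first question was whether inhibition of miR-182 changed these genes. None of the 9 passed at day 2, at day 7, over both days or in the difference between days, by limma at an adjusted p under 0.05. The same test called 0% of all genes at day 2, 0% at day 7, 0.00550% (1 gene, Mir182) over both days and 0% for the difference between days. None of the 9 had an unadjusted p under 0.05 in any of these comparisons, against 1201, 593, 957 and 713 genes of 18166. At day 2, 4 genes were higher and 5 lower under anti-miR-182, with a median difference of -0.090 against 0.033 for all genes. At day 7, 3 were higher and 6 lower, with a median of -0.065 against -0.00078. Of all genes 58.7% were higher under anti-miR-182 at day 2 and 49.8% at day 7. Relative to the all-gene median, 3 of the 9 lay above and 6 below on each day.

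Among the ligands, Tgfb1 differed by -0.20 ± 0.15 (SE) at day 2 and by -0.16 ± 0.15 at day 7. Its mean difference over both days, -0.18 ± 0.11, was the lowest of the 9 genes, with a 95% interval from -0.41 to 0.046 and limma adjusted p = 0.890. Tgfb3 gave nearly the same, -0.18 ± 0.21 at day 2 and -0.17 ± 0.21 at day 7. Neither gene passed, and its groups overlapped on both days. Tgfb2 differed by -0.11 ± 0.21 and -0.065 ± 0.21, and Inhba by -0.090 ± 0.14 and 0.080 ± 0.14. Gdf15 moved least at day 2, by 0.023 ± 0.11, and by 0.057 ± 0.11 at day 7. Bmp7 turned in sign, from -0.29 ± 0.17 at day 2 to 0.19 ± 0.17 at day 7. That difference between days, 0.49 ± 0.24 with a 95% interval from -0.020 to 0.99, was the largest of the 9 genes, and limma gave it an adjusted p of 0.999.

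Of the receptor and downstream genes, Tgfbr1 was 0.20 ± 0.12 (SE) higher under anti-miR-182 at day 2 (limma adjusted p = 0.781) and -0.017 ± 0.12 different at day 7. It was the only one of the 9 whose groups did not overlap at day 2, where 12.3% of all genes did not overlap either. At day 7 none of the 9 was free of overlap, against 7.26% of all genes. Smad7 differed by 0.16 ± 0.12 at day 2 and -0.065 ± 0.12 at day 7. Ccn2 differed by 0.10 ± 0.20 and -0.11 ± 0.20. Taking the 9 genes at each day, the 95% intervals reached from -0.65 to 0.52 at day 2 and from -0.61 to 0.55 at day 7, and over both days from -0.48 to 0.29. A log2 difference of 1 in either direction lay outside each of them, and the failure to pass does not show that smaller differences were absent. Comparisons at both days use different arrays but the same estimate of spread for each gene. Each shares its arrays with the mean over both days.

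**Figure D2:**
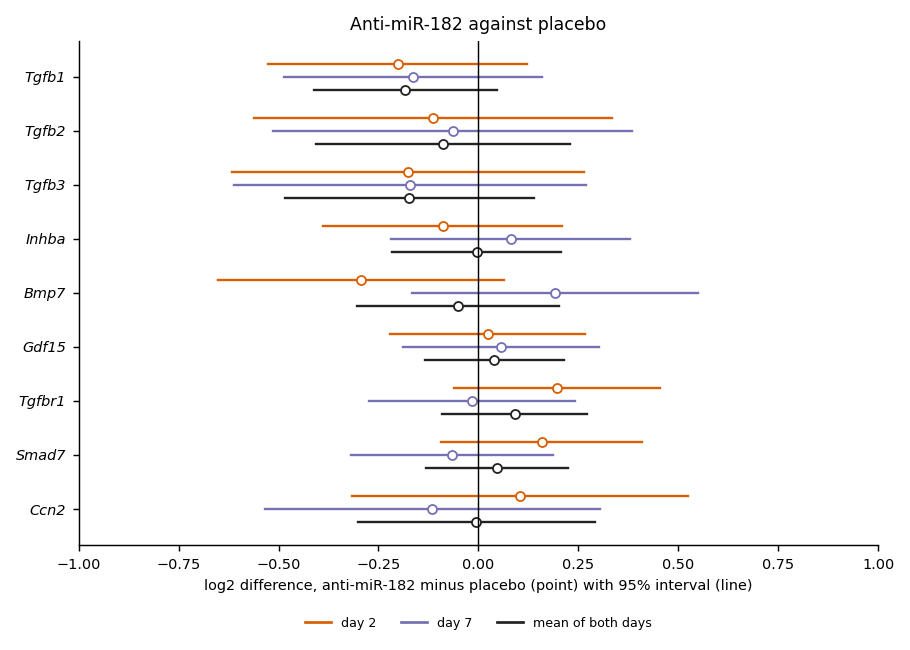
Difference in log2 signal, anti-miR-182 minus placebo, for the 9 genes at day 2, at day 7 and as the mean of both days; points are limma estimates and lines their 95% intervals. Every interval includes 0, and Bmp7 is the gene whose estimates lie farthest apart between days, at -0.29 and 0.19.

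The second question was how the genes differed between day 7 and day 2 within each treatment. Over all genes the median difference, day 7 minus day 2, was -0.18 in placebo and -0.21 under anti-miR-182. Differences are given both as deposited and relative to those medians. In placebo 1 of the 9 genes passed, Gdf15, which fell, against 28.0% of all genes called (4.22% higher and 23.7% lower). Under anti-miR-182 2 of the 9 passed, Inhba, which rose, and Gdf15, which fell, against 27.5% (2.68% higher and 24.9% lower). As the mean of both treatments, a comparison added after the values were seen, 3 passed, Inhba and Tgfb2 higher and Gdf15 lower, against 47.6% (6.71% higher and 40.9% lower). In either direction these shares of the 9 lie below those of all genes. Among calls of higher signal, 2 of the 9 stand beside 6.71% of all genes over both treatments. In direction, 6 of the 9 were higher at day 7 in placebo and 5 of the 9 under anti-miR-182, against 28.0% and 23.6% of all genes. Relative to the all-gene median, 7 of the 9 lay above it in placebo and 8 of the 9 under anti-miR-182, where by construction the median divides all genes evenly.

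Inhba was 0.38 ± 0.14 (SE) higher at day 7 in placebo (limma adjusted p = 0.0537) and 0.55 ± 0.14 higher under anti-miR-182 (adjusted p = 0.0113). Over both treatments the rise was 0.47 ± 0.098, or 1.38-fold, with limma adjusted p = 0.00176. Relative to the all-gene medians the activin chain gained 0.56 in placebo and 0.76 under anti-miR-182. All 6 day 7 arrays exceeded all 6 day 2 arrays, as for 437 of 18166 genes. The call over both treatments held without any 1 of the 12 arrays and under both other scalings, with 0.63 after centring arrays on their medians and 0.64 after quantile normalization. In placebo alone Inhba passed without anti-miR-182 day 2 replicate 3 (adjusted p = 0.0288), and under anti-miR-182 it did not pass with the animal number as a covariate (0.51, adjusted p = 0.0595). That covariate, in this and all later fits, split the animals of the titles at number 90. Every day 2 array was above it, and at day 7 only placebo replicate 1 and anti-miR-182 replicate 3 were. The split thus largely follows the day, and its fits lean on those day 7 arrays.

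Tgfb2 was 0.48 ± 0.21 (SE) higher in placebo (limma adjusted p = 0.0997) and 0.53 ± 0.21 higher under anti-miR-182 (adjusted p = 0.0731). Over both treatments it rose by 0.50 ± 0.15, or 1.42-fold, with adjusted p = 0.0129. The estimate was nearly equal in both treatments, and it kept its call without any 1 array but not with the animal number as a covariate (0.52, adjusted p = 0.0805). Gdf15 fell by 0.36 ± 0.11 in placebo (adjusted p = 0.0333), by 0.32 ± 0.11 under anti-miR-182 (adjusted p = 0.0495) and by 0.34 ± 0.081 over both (adjusted p = 0.00383). It lay below the all-gene medians by less, at -0.18 and -0.12, and lost every call after centring or quantile normalization (-0.17, adjusted p = 0.117, and -0.15, adjusted p = 0.162, over both treatments). With the animal number as a covariate it passed over both treatments but in neither alone (-0.42, adjusted p = 0.0524, in placebo and -0.39, adjusted p = 0.0699, under anti-miR-182). Of the 3 scalings, its fall thus passed on the deposited scale alone. In placebo its call held in 7 of 12 fits with an array left out and was lost without placebo day 2 replicate 1 or 2 or without any of the 3 placebo day 7 arrays (adjusted p up to 0.119). Under anti-miR-182 it held in 2 of 12, without anti-miR-182 day 2 replicate 1 or day 7 replicate 2, and reached an adjusted p of up to 0.145 in the rest.

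For the other 6 genes no day difference passed in the deposited values with the 4 groups alone in an unweighted fit of all 12 arrays. Tgfb1 was 0.24 ± 0.15 (SE) higher in placebo and 0.27 ± 0.15 higher under anti-miR-182 (limma adjusted p = 0.254 and 0.185). Smad7 differed by 0.30 ± 0.12 and 0.082 ± 0.12 (adjusted p = 0.0664 and 0.628). Over both treatments limma gave Tgfb1 an adjusted p of 0.0629 and Smad7 one of 0.0693. With 1 array left out, Tgfb1 and Smad7 each passed over both treatments in 2 of 12 fits. Smad7 also passed in placebo in 1 of 12. Both stood above the all-gene medians, and both passed over both treatments after centring (Tgfb1 0.42, adjusted p = 0.00421; Smad7 0.36, adjusted p = 0.00343) or quantile normalization (0.44 and 0.35). With the animal number as a covariate the Tgfb1 difference shrank to 0.070 over both treatments (adjusted p = 0.720), 0.051 in placebo and 0.089 under anti-miR-182. Bmp7 differed by -0.40 ± 0.17 in placebo (adjusted p = 0.0881) and by 0.089 ± 0.17 under anti-miR-182. In placebo Bmp7 passed with the animal number as a covariate (-0.63, adjusted p = 0.0294) and also with array weights. It was the gene with the widest gap between the treatments, the same 0.49 given above. Tgfb3 differed by -0.12 ± 0.21 in placebo and -0.12 ± 0.21 under anti-miR-182, Tgfbr1 by 0.064 ± 0.12 and -0.15 ± 0.12, and Ccn2 by 0.064 ± 0.20 and -0.16 ± 0.20. None of these 3 genes passed on the deposited scale, and Tgfbr1 passed over both treatments only after quantile normalization, with the sign turned from -0.043 to 0.22 (adjusted p = 0.0404).

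**Figure D3:**
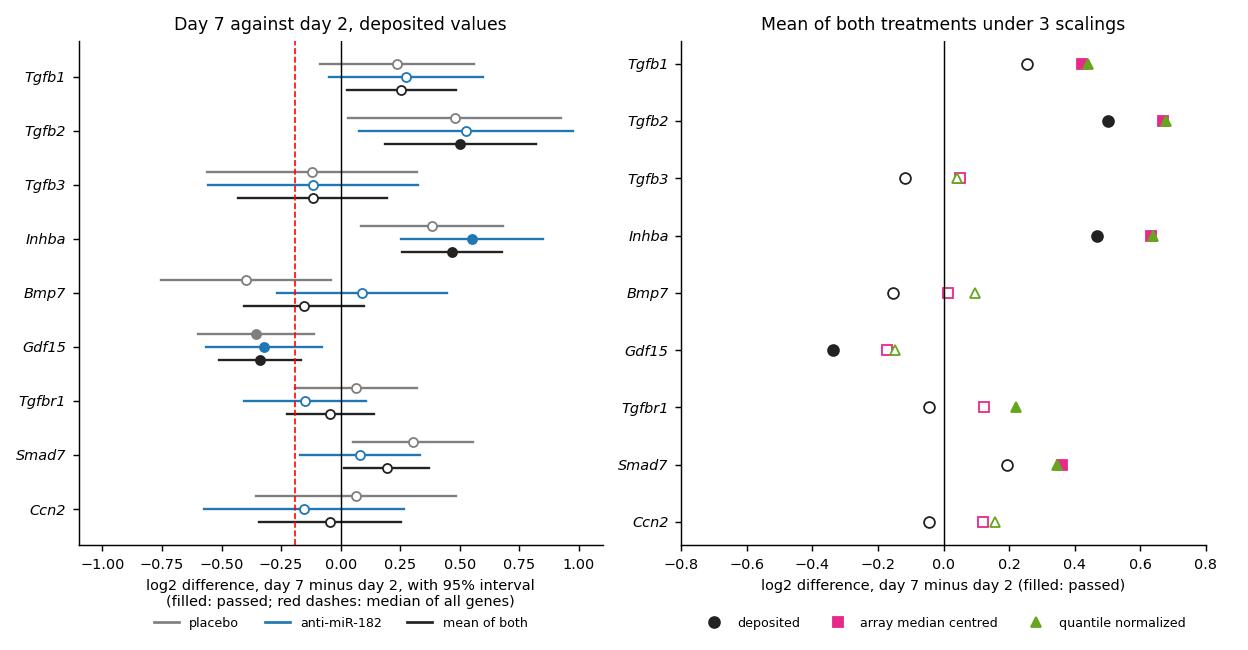
Left, difference in log2 signal, day 7 minus day 2, for the 9 genes in placebo, under anti-miR-182 and as their mean, with 95% intervals; filled points passed and dashes mark the median of all genes. Right, the mean of both treatments as deposited, after centring on array medians and after quantile normalization; Inhba and Tgfb2 stay above 0 and passed in all 3 scalings, Gdf15 passed in the deposited values only.

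Centring and quantile normalization changed the balance of day calls over all genes as well. Of the genes called in placebo, 15.1% were higher at day 7 as deposited, 45.8% after centring and 50.7% after quantile normalization. Under anti-miR-182 these shares were 9.74%, 45.6% and 48.6%. Of the 9 genes, 3 passed in placebo after centring and 5 after quantile normalization, all of them higher at day 7. Under anti-miR-182, 3 passed in either scaling. A fall with day in this section is thus a statement about the deposited scale, while the rises of Inhba and Tgfb2 over both treatments were seen on all 3.

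The rest of the pathway was read from 7 lists of 130 genes, of which 120 were measured. No gene of any list passed in a treatment comparison (limma, adjusted p under 0.05). Of the 25 measured TGF-beta response genes, which include matrix proteins and their cross-linking enzymes, 20 had lower mean values under anti-miR-182 over both days. Of all genes 55.5% had higher ones. The median of the list was -0.19 against 0.015 for all genes, and its genes share the same arrays, so the count carries no test. The smallest p-values were those of Fn1, the matrix protein fibronectin (-0.52 ± 0.19, SE), Vim, the intermediate filament vimentin (-0.47 ± 0.18), Postn, the matrix protein periostin (-0.95 ± 0.39), and Lox, a collagen cross-linking enzyme (-0.41 ± 0.18), all at adjusted p = 0.888. These sizes rest in part on single arrays, as Postn differed by -0.53 without placebo day 7 replicate 2, and Fn1 by -0.30 and Vim by -0.28 without anti-miR-182 day 2 replicate 3. Fn1 read 9.49, 9.12 and 9.31 in placebo and 9.21, 9.45 and 8.05 under anti-miR-182 at day 2. Anti-miR-182 day 2 replicate 3 was the low array, and without it the median of the list was -0.099. At day 7 Fn1 read 10.08, 10.57 and 10.11 in placebo and 9.48, 9.53 and 9.86 under anti-miR-182, with no overlap, as for 7.26% of all genes.

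Other lists showed smaller shifts with treatment, none of which passed. Of the 8 BMP response genes, 7 were higher under anti-miR-182 over both days (55.5% of all genes), with a median of 0.12. Examples are Atoh8 (0.19 ± 0.098, SE) and Id1 (0.16 ± 0.099), transcription regulators induced by BMPs. Id3 went the other way over both days. Its mean signals were 7.07 in placebo and 6.73 under anti-miR-182 at day 2, and 6.70 and 6.77 at day 7. Of 20 measured SMADs and intracellular regulators 16 were lower (median -0.075), among them Ppm1a, a phosphatase of SMADs (-0.18 ± 0.082), and Tgif1, a SMAD corepressor (-0.24 ± 0.14). Without anti-miR-182 day 2 replicate 3 the median of this list was -0.011, against 0.023 for all genes. Tgif1 read 8.46, 8.64 and 7.74 under anti-miR-182 at day 2, with that array the lowest. In both lists the genes share the same arrays, so the counts carry no test. The 24 other ligands had a median of 0.058, the 12 other receptors -0.0088, the 14 latency and activation genes -0.036 and the 17 extracellular antagonists 0.036. All of these lay close to the all-gene median of 0.015.

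Between days, 24 of the 120 pathway genes passed in placebo (8 higher and 16 lower at day 7) and 29 under anti-miR-182 (4 higher and 25 lower). These are 6.67% higher and 13.3% lower in placebo, beside 4.22% and 23.7% of all genes, and 3.33% higher and 20.8% lower under anti-miR-182, beside 2.68% and 24.9%. Both day comparisons share no array but use the same estimate of spread for each gene, so their calls are not independent. In both, 17 genes, or 14.2%, passed (4 higher and 13 lower), beside 18.1% of all genes. After centring, all 8 of the genes that rose in placebo and all 4 under anti-miR-182 still passed, while 7 of 16 and 7 of 25 of those that fell did. Without placebo day 2 replicate 1 the placebo count was 14, and without anti-miR-182 day 2 replicate 2 the anti-miR-182 count was 16, and without anti-miR-182 day 7 replicate 1 it was 17.

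The rises were in TGF-beta response genes and in latency genes. Of the 25 response genes 6 rose and 2 fell in placebo, and 3 rose and 1 fell under anti-miR-182. Postn read 5.20, 5.78 and 6.14 in placebo at day 2 and 7.001, 10.36 and 8.71 at day 7, a rise of 2.98 ± 0.55 (SE; limma adjusted p = 0.00215). Under anti-miR-182 periostin went from 5.54, 5.51 and 5.27 to 6.99, 7.16 and 7.03, a rise of 1.62 ± 0.55 (adjusted p = 0.0413). All day 7 arrays stood above all day 2 arrays in both treatments, as for 1523 of 18166 genes in placebo and 973 under anti-miR-182. Placebo day 7 replicates 2 and 3 reached well beyond the rest. Lox rose by 0.96 ± 0.25 in placebo and 0.93 ± 0.25 under anti-miR-182, and Adam12, a metalloprotease of activated fibroblasts, by 0.64 ± 0.14 and 0.40 ± 0.14. Fn1 rose by 0.94 ± 0.28 in placebo, as did Col3a1, a fibrillar collagen, by 0.61 ± 0.19, and Loxl2, a cross-linking enzyme, by 0.57 ± 0.15. Under anti-miR-182 these genes were also higher at day 7 but did not pass. Their limma differences were 0.72 for Fn1 (adjusted p = 0.0634), 0.18 for Col3a1 (0.507) and 0.32 for Loxl2 (0.123). Angptl4 (-0.88 ± 0.20) and Nox4, an NADPH oxidase (-1.03 ± 0.35), fell in placebo, and Cdkn2b, a cell cycle inhibitor, fell under anti-miR-182 (-0.79 ± 0.11). In the other treatment they did not pass, at -0.36 for Angptl4, -0.61 for Nox4 and -0.23 for Cdkn2b. The counts of rises depend on single arrays, and under anti-miR-182 Postn itself passed in 5 of 12 fits with an array left out, against 12 of 12 in placebo. In placebo 2 response genes, Postn and Adam12, still rose without placebo day 7 replicate 2, and 4 without placebo day 2 replicate 1 or 2. Under anti-miR-182 the number was 1 without anti-miR-182 day 2 replicate 3, placebo day 2 replicate 2, or anti-miR-182 day 7 replicate 2 or 3.

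Of 14 latency and activation genes, 2 rose and 3 fell in placebo, and 1 rose and 4 fell under anti-miR-182. Ltbp2, a latent TGF-beta binding protein family member, rose in both (0.48 ± 0.15 and 0.45 ± 0.15, SE). Nrros, which holds latent TGF-beta on macrophages, rose in placebo (0.62 ± 0.16) and did not pass under anti-miR-182 (0.32). Itgb6 and Itgb8, the beta chains of integrins that release TGF-beta from its latency peptide, fell in both treatments. Itgb8 went from 10.70, 10.77 and 10.67 to 10.27, 10.05 and 10.27 in placebo (-0.52 ± 0.10, limma adjusted p = 0.00373). Its change under anti-miR-182 was -0.38 ± 0.10, and neither change passed after quantile normalization (-0.19, adjusted p = 0.230, in placebo). Itgb6 fell by 0.54 ± 0.14 and 0.62 ± 0.14 and did not pass in either treatment after quantile normalization.

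Among the ligands, receptors, antagonists and SMAD regulators the genes that passed in either treatment were lower at day 7 on the deposited scale. In placebo the shares called lower were 12.5%, 8.33%, 11.8% and 25% in that order, beside 23.7% of all genes, and under anti-miR-182 they were 20.8%, 41.7%, 29.4% and 20%, beside 24.9%. The direction depends on the scaling, since 3 ligands passed as higher and 1 as lower in placebo after centring, and 6 SMADs and regulators passed as higher and 2 as lower over both treatments after quantile normalization. Of 24 other ligands 3 fell in placebo and 5 under anti-miR-182 with none rising. Inha, the inhibin alpha chain that pairs with the Inhba product to form an activin antagonist, fell by 0.61 ± 0.10 (SE) in placebo and 0.69 ± 0.10 under anti-miR-182. Its signals were 6.15, 6.15 and 6.13 in placebo at day 2 and 5.50, 5.44 and 5.66 at day 7, and it passed in both treatments after centring (-0.46 and -0.51) and quantile normalization (-0.50 and -0.52). Of 12 receptors 1 fell in placebo and 5 under anti-miR-182, with Bmpr2, the type II receptor of BMPs, falling in both (-0.52 ± 0.13 and -0.69 ± 0.13). Bmpr2 did not pass after quantile normalization (-0.21, adjusted p = 0.333, and -0.42, adjusted p = 0.0577). Of 17 antagonists 2 fell in placebo and 5 under anti-miR-182, both including Chrdl1, a BMP binder (-0.83 ± 0.17 and -0.65 ± 0.17), and Bambi, a decoy receptor (-0.52 ± 0.13 and -0.48 ± 0.13). Of 20 SMADs and regulators 5 fell in placebo and 4 under anti-miR-182, among them Smad2, Smurf1, a ubiquitin ligase of the pathway, and Zfyve9, which presents SMADs to the receptor. Of 8 BMP response genes none passed in placebo and 1, Atoh8, fell under anti-miR-182 (-0.39 ± 0.14, adjusted p = 0.0490).

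**Figure D4:**
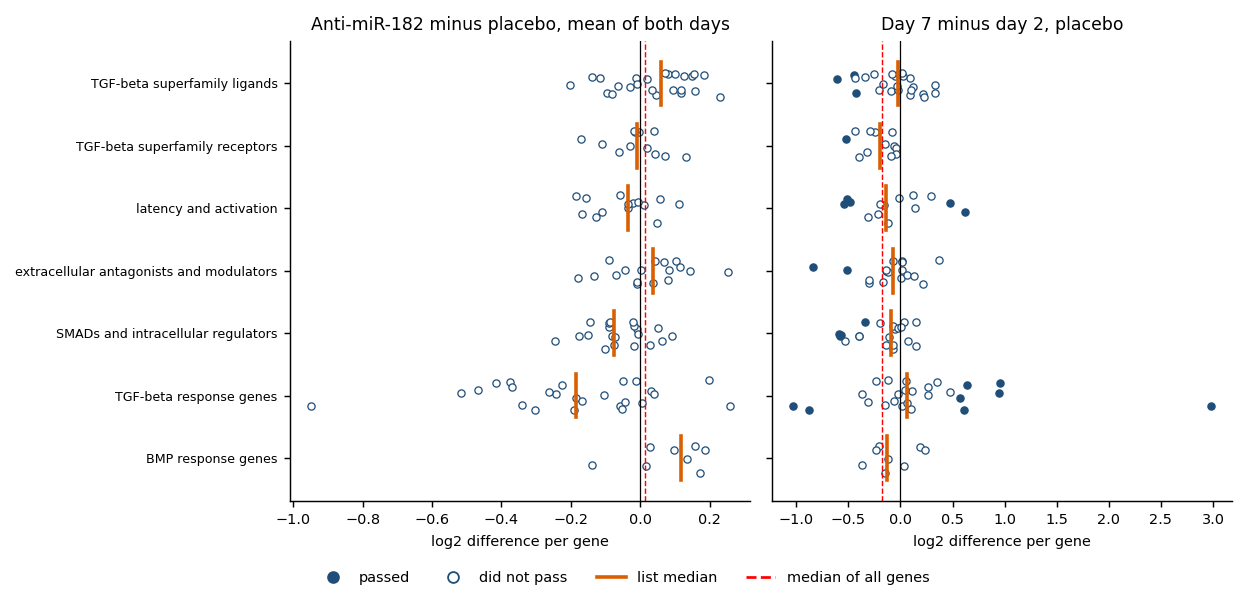
Difference in log2 signal of each of the 120 measured pathway genes, by list, for anti-miR-182 minus placebo over both days (left) and for day 7 minus day 2 in placebo (right); filled points passed, bars mark list medians and dashes the median of all genes. No point is filled on the left; on the right the TGF-beta response genes hold 6 of the 8 filled points above 0, with Postn farthest at 2.98.

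Marker levels of other cell types differed between the same groups. The mean log2 signal of 9 fibroblast markers ran from 7.64 to 7.88 in placebo at day 2, 7.52 to 7.95 under anti-miR-182 at day 2, 8.14 to 8.88 in placebo at day 7 and 7.91 to 7.95 under anti-miR-182 at day 7. Of these markers 8 of 9 were higher at day 7 in placebo (2 passed) and 5 of 9 under anti-miR-182 (1 rose and 1 fell), and 4 of them, Col1a1, Col1a2, Col3a1 and Postn, are also on the response list. Of all genes 28.0% and 23.6% were higher in the same comparisons, with 4.22% and 2.68% called higher. The mean of 8 macrophage markers ran from 6.86 to 6.88 in placebo at day 2, 6.73 to 7.004 under anti-miR-182 at day 2, 7.004 to 8.32 in placebo at day 7 and 7.07 to 7.20 under anti-miR-182 at day 7. The mean of 6 T cell markers ran from 5.50 to 5.60, 5.39 to 5.77, 5.96 to 7.17 and 6.05 to 6.21 in the same order. Placebo day 7 replicate 2 was the highest array for all 3 lists, and it also held the highest Postn, Fn1, Lox and Tgfb1. Of these, Postn is itself one of the fibroblast markers. Within its group the same array was highest for Tgfb1, Tgfb3 and Bmp7 and lowest for Smad7 and Ccn2. Placebo day 7 replicate 3 was highest for Tgfb2, Tgfbr1, Inhba, Gdf15 and Ccn2. All 7 proximal tubule markers were lower at day 7 in both treatments, with 4 passing in placebo and 2 under anti-miR-182. Of all genes 23.7% and 24.9% were called lower in these comparisons. Collecting duct markers were lower too, 5 of 6 in placebo (2 passing) and 6 of 6 under anti-miR-182 (5 passing). So were all 3 podocyte markers, with 2 passing in each treatment. Anti-miR-182 day 2 replicate 3, low for 7 of the 9 genes, had a mean of 7.54 over 8 markers of injured tubule, against 8.14 and 8.34 in the other two arrays of its group. The part of cell composition in any of these differences was not tested.

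How the 9 genes varied together was described over the 12 arrays after subtracting the mean of each day, so that a difference between days does not count. Points share array and scaling, and Pearson's r is given without a test. Over 36 pairs r ran from -0.42 (Bmp7 with Ccn2) to 0.87 (Tgfb1 with Tgfb3), with a median of 0.23. Tgfb1 and Tgfb3 gave 0.72 over the 6 arrays of day 2 and 0.99 over the 6 of day 7. Tgfb2 and Inhba gave 0.75 over all arrays, 0.77 within day 2 and 0.76 within day 7. Other pairs turned in sign between the days. Among them, Tgfb1 and Tgfbr1 gave -0.74 within day 2 and 0.83 within day 7, and Inhba and Gdf15 -0.55 and 0.63.

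Among all other genes, those most like Tgfb1 in the same measure were Serpinh1, a collagen chaperone (r = 0.95), Nid2-ps16 and Cenph (both 0.94). Ext1, an enzyme of heparan sulfate synthesis, was most like Tgfb2 (0.93), and Ier3, an immediate early gene, most like Tgfb3 (0.92). Camsap1 was most like Inhba (0.95), Rxra, a nuclear receptor, most like Bmp7 (0.96), and Ap4b1 most like Gdf15 (0.91). Nptn was most like Tgfbr1 (0.91), Abhd15 most like Smad7 (0.91), and Or8k25 most like Ccn2 (0.92). Each was picked as the highest r among 18166 genes over 12 arrays, so these values describe the arrays and carry no test.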

How the data were processed

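Total RNA of 12 rat kidneys was labelled with biotin, 200 ng per array, per the labels' protocols. The authors deposited log2 values made with RMA, per the submitters' processing notes; its version was not given in the sources used here, nor was a batch. No further normalization was applied. The array annotation listed 19086 rows, 18511 with 1 symbol, 575 with several, and did not list 17599; 18394 single symbols matched RefSeq by gene ID, 117 did not, and 0 were updated. Of 291 genes with more than 1 row the row with the highest mean was used. Limma 3.58.1 (R 4.3.3) fitted 4 group means over 12 arrays with eBayes, and Benjamini-Hochberg adjustment ran over 18166 genes; a gene passed at an adjusted p under 0.05. The number of arrays limits the precision. P-values measure the spread between animals, 3 in each group. Named genes were the 9 members, the 4 pathway genes of each list with the smallest p for treatment over both days and the 4 for day in placebo, and each member's most similar genes; other pathway genes are named where they passed. Members, lists and alternatives were chosen with earlier results of these data known. The steps were tested on simulated data.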

Additional observations from a re-analysis of the deposited data

How the results depend on the processing

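Settings changed 1 at a time were array weights, trended or robust eBayes, separate fits of the days, centring on array medians, quantile normalization, a filter on the dimmest 25% or 50% of genes, rows of a gene averaged, all rows of the table tested, an animal number covariate (above 90 or not), an adjusted p under 0.1, a minimum log2 difference of 1, and each array left out in turn. No paired analysis was possible because the titles give a different animal for each array and no number shared between groups. None of the 9 genes passed in any of the 4 treatment comparisons under any of these alternatives. The number of all genes called with treatment at day 2 was 0, and 1 with an adjusted p under 0.1, the animal covariate, array weights or each day alone; leaving out an array gave 0 to 1 at day 2, 0 to 3 at day 7, 0 to 1 for the difference between days and 0 to 4 over both days. Over both days the 1 call, Mir182, became 0 with the dimmest 25% or 50% left out or every row tested. Both filters leave out Mir182 itself, whose mean signal lay under the lower quartile of gene means, 5.47. The loss of its call under the filters was thus fixed in advance. The days compared as the mean of both treatments, and differences relative to the all-gene median, were chosen after seeing the data.

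In placebo 1 of the 9 genes passed with day, against 5 with an adjusted p under 0.1 or quantile normalization, 4 with array weights, 3 with centring, 2 with the dimmest 25% or 50% left out (7 of the 9 remained for the latter), 0 with every row tested or a minimum difference of 1, and 0 to 2 with an array left out. With the animal covariate the count was also 1, but the gene was Bmp7 and not Gdf15. Under anti-miR-182 the 2 became 0 with the animal covariate or a minimum difference of 1, 1 with every row tested or robust eBayes, and 1 to 2 with an array left out. Over both treatments the 3 became 5 with an adjusted p under 0.1 or quantile normalization and 0 with a minimum difference of 1. Tgfbr1 reversed over both treatments, to 0.22 (adjusted p = 0.0404) after quantile normalization, which moves the median of all genes to near 0.

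Of all genes 5080 were called with day in placebo, against 3228 with centring, 3364 with the dimmest 50% left out, 2914 with quantile normalization, 385 with a minimum difference of 1 and 3198 to 5773 with an array left out. Under anti-miR-182 the 5002 became 2482, 2651, 2695 and 308 in that order, and 3069 to 5072. Over both treatments the 8646 became 5639 with the animal covariate, 4918 with the dimmest 50% left out, 13100 of all rows and 314 with a minimum difference of 1. Of the 120 pathway genes 24 passed in placebo, against 2 with a minimum difference of 1 and 14 to 27 with an array left out. Under anti-miR-182 the 29 became 15 with the animal covariate, 18 with centring, 17 with the dimmest 50% left out, 19 with every row tested or quantile normalization, 1 with a minimum difference of 1 and 16 to 28 with an array left out. Over both treatments 43 passed, against 28 with the dimmest 50% left out and 1 with a minimum difference of 1. Fewer genes or stricter limits lower these counts by construction; the cause of the other changes was not tested.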
